A study of Mus musculus with 21 samples.

Results

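The mouse mitochondrial genome encodes 22 tRNAs, and 8 of them are read from the minus strand: Pro-TGG-MT for proline, Glu-TTC-MT for glutamate, Ser1-TGA-MT for serine, Tyr-GTA-MT for tyrosine, Cys-GCA-MT for cysteine, Asn-GTT-MT for asparagine, Ala-TGC-MT for alanine and Gln-TTG-MT for glutamine, called Pro, Glu, Ser1, Tyr, Cys, Asn, Ala and Gln here by their amino acid. They were chosen by the strand of their gene in the GENCODE M21 annotation (mm10), and the rule uses no measured value, although earlier results of these data were known when it was set. They are 8 of the 209 tRNA rows in the cerebrum count table and of the 208 rows in the cerebellum count table, and all 8 were measured and passed the filter on low counts in every comparison. The other 14 mitochondrial tRNAs are read from the plus strand and served as the closest set for comparison.

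The libraries came from brain tissue of C57BL/6J mice that were either wildtype or carried a Polr3a mutation whose recombination was induced with tamoxifen on postnatal day 28. The wildtype mice received tamoxifen too, and all tissue was frozen on day 42. The Polr3a protein is the core catalytic subunit of RNA polymerase III, which makes the nuclear tRNAs. QuantM-tRNA-seq, a library method for tRNA, gave 4 mutant and 6 wildtype libraries from cerebrum and 5 mutant and 6 wildtype libraries from cerebellum. The sources used here name neither the Cre line nor the cells in which recombination took place. Nothing in the labels states that each library is another animal, and the p-values thus cover the spread between libraries, which may be technical. Neither the Polr3a mutation nor the identity of the tissue can be checked in a tRNA library.

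RNA polymerase III does not make mitochondrial tRNAs. A separate mitochondrial RNA polymerase transcribes each strand of the circular genome into long precursors, in which tRNAs sit between the other genes and are cut out at both ends by dedicated nucleases. The minus strand carries, besides these 8 tRNAs, 1 protein-coding gene, Nd6, a subunit of respiratory complex I, while the ribosomal RNAs and all other protein-coding genes lie on the plus strand. The terminal CCA to which an amino acid is attached is not encoded and is added after cutting, next to the last encoded base, called the discriminator base. Each of these tRNAs delivers its amino acid to the mitochondrial ribosome, which makes core subunits of the respiratory chain.

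The 8 encoded sequences are shown because each is a single gene, so that no near-identical sister within the mitochondrial genome shares its reads, and because their lengths and end bases are compared with the values further on. Each is 1 exon of a non-coding gene of chromosome M, printed 5′ to 3′ in the sense of the tRNA in the order in which a precursor starting in the control region would pass them, with the anticodon in capitals; sequences and coordinates are from GENCODE M21 on mm10.
mt-Tp, Pro (chrM:15356-15422, minus strand): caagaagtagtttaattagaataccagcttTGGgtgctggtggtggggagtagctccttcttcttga
mt-Te, Glu (chrM:14071-14139, minus strand): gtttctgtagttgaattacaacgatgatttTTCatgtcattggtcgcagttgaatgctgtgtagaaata
mt-Ts1, Ser1 (chrM:6870-6938, minus strand): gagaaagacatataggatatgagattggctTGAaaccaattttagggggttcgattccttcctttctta
mt-Ty, Tyr (chrM:5260-5326, minus strand): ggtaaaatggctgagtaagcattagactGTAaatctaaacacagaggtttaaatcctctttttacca
mt-Tc, Cys (chrM:5192-5257, minus strand): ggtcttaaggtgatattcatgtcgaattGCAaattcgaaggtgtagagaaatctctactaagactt
mt-Tn, Asn (chrM:5089-5159, minus strand): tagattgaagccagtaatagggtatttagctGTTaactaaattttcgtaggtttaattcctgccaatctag
mt-Ta, Ala (chrM:5018-5086, minus strand): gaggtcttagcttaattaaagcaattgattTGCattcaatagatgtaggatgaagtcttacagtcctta
mt-Tq, Gln (chrM:3772-3842, minus strand): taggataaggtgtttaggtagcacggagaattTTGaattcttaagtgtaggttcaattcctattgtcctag

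Pro lies next to the control region and Glu beside Nd6, Ser1 overlaps the last 3 bases of Co1 on the other strand, and Tyr, Cys, Asn and Ala form a cluster, with Gln last. Tyr and Cys are 2 bases apart, Asn and Ala are 2 bases apart, and 32 bases, the stretch of the light-strand replication origin, lie between Cys and Asn. Gln overlaps the plus-strand isoleucine gene by 3 bases. The 8 tRNAs are 66 to 71 bases long with a median GC content of 35.6%, against 31.8% for the 14 plus-strand tRNAs, and their median G content is 23.0% against 15.7%. Asn and Gln, both 71 bases long, are the only members whose sequence starts with T and ends with G. Cys ends with T and the other 5 end with A. Among the 14 plus-strand genes, tryptophan (Trp) alone ends with G.

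Cerebrum libraries held 4353056 to 7588902 tRNA counts. Cerebellum libraries held 1612754 to 7110313 and fell on both sides of 3000000: mutant 1 and wildtypes 1, 2, 3, 4 and 6 below it, mutants 2, 3, 4 and 5 and wildtype 5 above it. Depth and genotype are therefore nearly the same split in cerebellum, and tissue and count table cannot be told apart in either genotype. No pair of replicates held identical counts. In bulk tissue, fewer cells of a type and less tRNA per cell cannot be told apart.

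The 8 tRNAs made up 2.63% ± 0.175 (SD, n = 6) of the tRNA counts in wildtype cerebrum and 3.17% ± 0.308 (SD, n = 4) in mutant cerebrum. In cerebellum they made up 3.7% ± 0.246 (SD, n = 6) in wildtype and 4.78% ± 0.866 (SD, n = 5) in mutants. Within the mitochondrial counts their share was 23.4% ± 0.889 (SD, n = 6) in wildtype cerebrum, 22.2% ± 0.805 (SD, n = 4) in mutant cerebrum, 27.6% ± 0.616 (SD, n = 6) in wildtype cerebellum and 27.8% ± 1.45 (SD, n = 5) in mutant cerebellum. Every cerebellum library lay above every cerebrum library, and the genotypes overlapped in both tissues. These shares sum all members, which differed between tissues in both directions, as given further on. They also depend on the plus-strand counts, so they do not show a shift of the whole strand. They are given as a description, with no test.

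**Figure D1:**
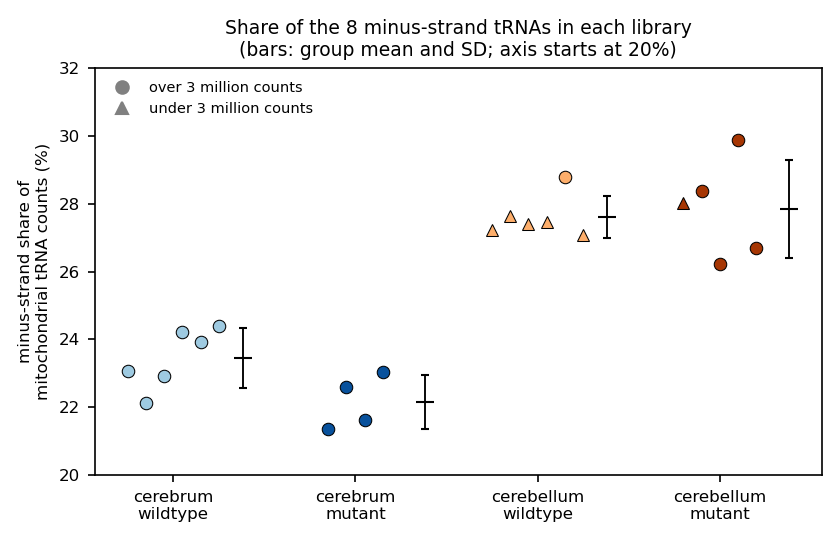
The vertical axis gives the share of the 8 minus-strand tRNAs among the mitochondrial tRNA counts of each library, in percent and starting at 20%, and the horizontal axis the 4 groups; circles are libraries of over 3000000 counts, triangles those below, and bars the group mean and SD. All 11 cerebellum libraries lie above all 10 cerebrum libraries.

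Levels are given as CPM, counts scaled to a common library size, here over all 21 libraries with TMM, a method that sets the library sizes so that most tRNAs do not differ. Compared per 100 bases of tRNA, Pro, Tyr and Ser1 held the top 3 places in all 4 groups. In wildtype cerebrum Pro stood at 11536 ± 1872 CPM per 100 bases (SD, n = 6), Tyr at 10419 ± 939.9 and Ser1 at 6528 ± 573. Pro lay above Tyr in only 4 of the 6 libraries there, so the first places do not differ beyond their spread, while Tyr lay above Ser1 in all 6.

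The lower places changed with the tissue. In wildtype cerebrum Asn, at 3494 ± 655 CPM per 100 bases, and Gln, at 3321 ± 584, came next, followed by Cys at 2328 ± 499, Glu at 2148 ± 386 and Ala, the lowest, at 1923 ± 359. In wildtype cerebellum Glu, at 4943 ± 413, and Ala, at 4892 ± 242, held the places behind Ser1, and Gln and Asn were the lowest at 2281 ± 242 and 1961 ± 244. Glu lay above Ala in 4 of the 6 wildtype cerebellum libraries, Asn above Gln in 5 of the 6 wildtype cerebrum libraries and Gln above Asn in 5 of the 6 wildtype cerebellum libraries. In mutant cerebellum Tyr, at 16834 ± 3837 (SD, n = 5), stood above Pro, at 15904 ± 3129, in 4 of 5 libraries. The order is one of read counts.

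**Figure D2:**
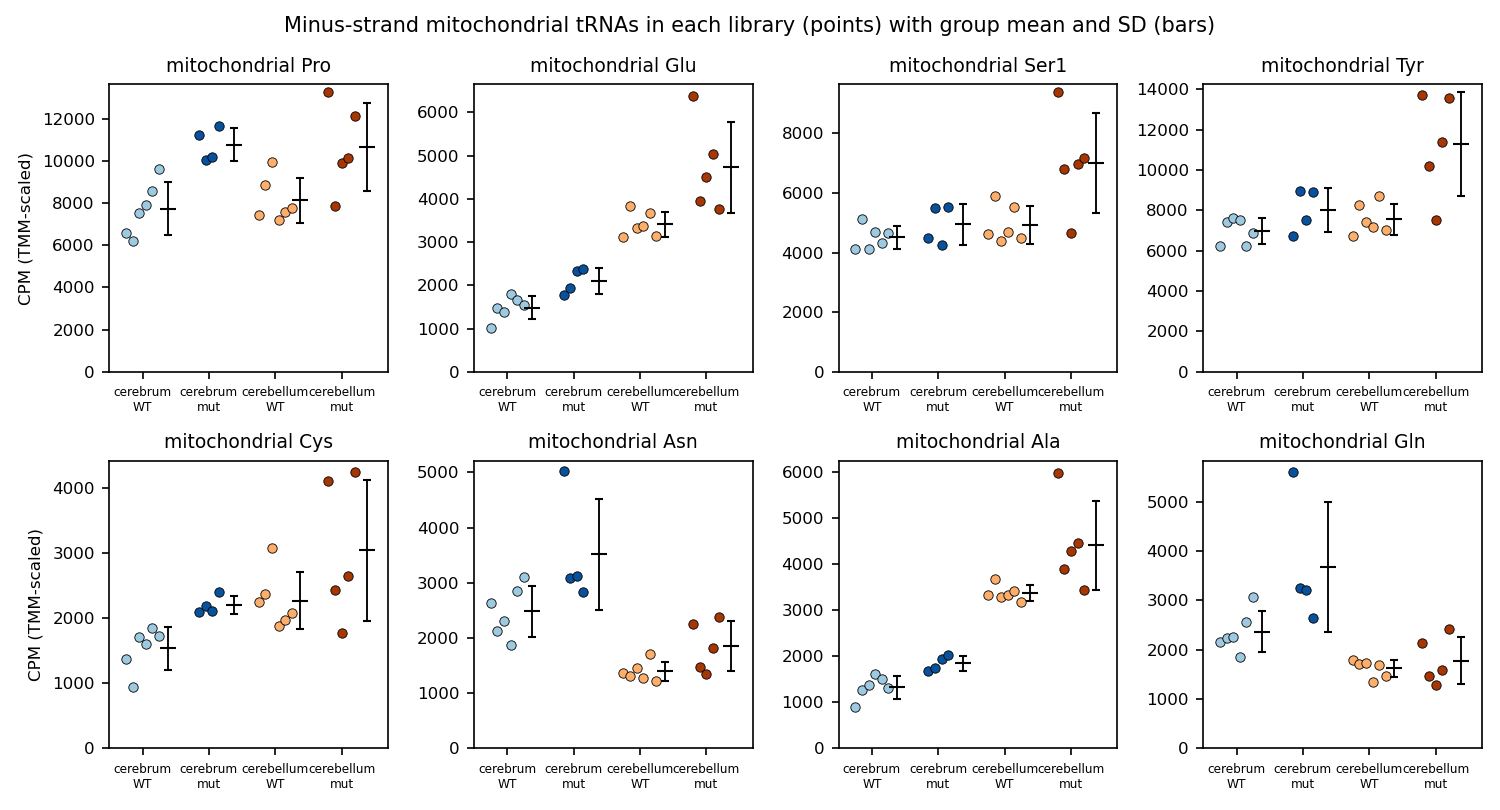
Each panel shows 1 minus-strand mitochondrial tRNA, with TMM-scaled CPM on the vertical axis from 0 and the 4 groups (WT wildtype, mut mutant) on the horizontal axis; points are libraries and bars the group mean and SD. Glu and Ala lie higher in all cerebellum than in all cerebrum libraries of the same genotype, and Asn and Gln lie lower.

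The first question of the design is what the Polr3a mutation did in each brain region. Relative to the whole tRNA pool, 5 of the 8 minus-strand tRNAs were higher in mutant than in wildtype cerebrum and none was lower. Over all tRNAs, 41 of 208 (19.7%) passed, and 17 (8.17%) passed as higher in mutants. Of the 14 plus-strand mitochondrial tRNAs 10 rose, 3 of the 6 encoded before Co1 and 7 of the 8 encoded after it. The median log2 difference was 0.41 over the 8 members, 0.43 over the 14 plus-strand tRNAs and −0.03 over all 208. The tests were edgeR quasi-likelihood tests on the counts, each tissue fitted alone, with Benjamini-Hochberg adjustment over all tRNAs and a threshold of 0.05.

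Gln, which carries glutamine, had 5606, 3244, 3216 and 2631 CPM in cerebrum mutants 1 to 4. The 6 wildtype libraries had 1854 at the lowest, 2251 at the median and 3069 at the highest. Mutant 1 was far above the rest, 3 mutants lay above all wildtype libraries and mutant 4 lay among them. On the log2 scale the difference was 0.56 ± 0.17 (SE; adjusted p = 0.0251, edgeR with Benjamini-Hochberg adjustment), and without mutant 1 it was 0.35 (adjusted p = 0.0567), past the threshold no longer.

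Asn, next to Ala in the genome, had 5017, 3092, 3119 and 2832 CPM in the 4 mutants. The wildtype libraries had 1871 at the lowest, 2469.6 at the median and 3110 at the highest. Mutant 1 was again the highest library and only 2 mutants lay above all wildtype libraries. Its difference of 0.42 ± 0.16 (SE) did not pass (adjusted p = 0.0794, edgeR with Benjamini-Hochberg adjustment). Leaving out wildtype 1 or wildtype 6 brought it past the threshold, at 0.49 and 0.49.

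Pro, the first tRNA of the minus-strand precursor, had 11204, 10042, 10169.9 and 11625 CPM in mutants. Wildtype libraries had 6213 at the lowest, 7710.1 at the median and 9608 at the highest. All 4 mutants lay above all 6 wildtype libraries. The fitted log2 difference was 0.40 ± 0.12 (SE; adjusted p = 0.021, edgeR with Benjamini-Hochberg adjustment), the lowest adjusted p among the members.

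Cys had 2099.8, 2197, 2119 and 2414 CPM in mutants. Wildtype libraries had 946 at the lowest, 1659 at the median and 1845 at the highest. The groups did not overlap, and wildtype 2 was the low library. The log2 difference was 0.45 ± 0.15 (SE; adjusted p = 0.0347, edgeR with Benjamini-Hochberg adjustment).

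Glu had 1769, 1944, 2321 and 2388 CPM in mutants and, in wildtype libraries, 1023 at the lowest, 1518 at the median and 1791 at the highest. Ala had 1688, 1735, 1943 and 2017 CPM in mutants and, in wildtype libraries, 896 at the lowest, 1339 at the median and 1621 at the highest. For Ala the groups did not overlap, and for Glu 1 mutant lay within the wildtype range. Such separation, seen for Pro, Cys and Ala, was not limited to the minus strand. The plus-strand tRNAs for valine, methionine, tryptophan, aspartate, lysine, glycine and arginine had it too. So did those for serine with anticodon GCT and leucine with anticodon TAG. How many of all tRNAs had it was not counted. The log2 differences were 0.44 ± 0.14 (SE; adjusted p = 0.0295) for Glu and 0.41 ± 0.13 (SE; adjusted p = 0.0339) for Ala by edgeR with Benjamini-Hochberg adjustment. Ala was the least stable of the 5 calls. When each of the 10 libraries was left out in turn, Ala passed in 3 of 10 fits. Glu and Cys passed in 7 of 10, Pro in 8 and Gln in 9.

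Ser1 and Tyr had the lowest values of the 8 in cerebrum. Ser1, which reads the UCN codons of serine, had 4481, 5502, 4237 and 5541 CPM in mutants and, in wildtype libraries, 4106 at the lowest, 4485 at the median and 5129 at the highest. Tyr had 6748, 8941, 7505 and 8918 CPM in mutants and, in wildtype libraries, 6228 at the lowest, 7149.7 at the median and 7602 at the highest. In both, mutants 2 and 4 lay above all wildtype libraries and mutants 1 and 3 lay among them. The log2 differences of 0.06 ± 0.12 (SE; adjusted p = 0.804) and 0.13 ± 0.12 (SE; adjusted p = 0.47) did not pass by edgeR with Benjamini-Hochberg adjustment, and both were negative with the mitochondrial total held constant (−0.33 and −0.26) or the spike-in (−0.27 and −0.20). Phe, a plus-strand tRNA, was the other mitochondrial tRNA near 0, at −0.02 ± 0.14 (SE).

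Single libraries and the scale bear on the count in cerebrum. Without mutant 4 only 1 member passed, without mutant 3 or wildtype 3 it was 2, and without mutant 2 it was 3. The counts over all tRNAs in these fits are not given here. With the mitochondrial total held constant 0 members passed as higher and 1, Ser1, as lower, and with a bacterial tRNA spike-in held constant none passed in edgeR. Over all 208 tRNAs 53.4% passed as lower on the first of these scales and 35.6% on the second, and 0 as higher on either. The median moved from −0.03 with TMM to −0.41 on the first scale and −0.36 on the second.

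In cerebellum none of the 8 passed in edgeR, where 5 of 202 tRNAs (2.48%) did. At an unadjusted p under 0.05 there were 6 members and 40 of all 202 tRNAs. DESeq2 called 2 members, and its count over all tRNAs is not given here. All 8 had a positive log2 difference, from 0.08 for Gln to 0.53 for Tyr, with a median of 0.37 against 0.34 for the 14 plus-strand tRNAs and −0.03 for all 202. The signs turned negative for all 8 with the spike-in held constant and for 5 with the mitochondrial total held constant.

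Tyr had 13722, 10218, 7516, 11386 and 13551 CPM in cerebellum mutants 1 to 5. The 6 wildtype libraries had 6745 at the lowest, 7298 at the median and 8689 at the highest. Mutants 1 and 5 were high, mutant 3 lay within the wildtype range and the other mutants above it. On the log2 scale the difference was 0.53 ± 0.15 (SE; adjusted p = 0.057, edgeR with Benjamini-Hochberg adjustment); without mutant 3 it was 0.66 (adjusted p = 0.00428).

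Ser1 had 9369.7, 6796, 4648, 6961 and 7169.6 CPM in cerebellum mutants, and the wildtype libraries had 4369 at the lowest, 4647 at the median and 5906 at the highest. Again mutant 3 lay among the wildtype libraries and the other 4 lay above. The fitted log2 difference was 0.45 ± 0.16 (SE; adjusted p = 0.1002, edgeR with Benjamini-Hochberg adjustment). For Gln the cerebellum mutants had 2138, 1465, 1280.4, 1589 and 2423 CPM and the wildtype libraries 1344 at the lowest, 1699.6 at the median and 1781 at the highest, with mutants on both sides of the wildtype range and a log2 difference of 0.08 ± 0.16 (SE).

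The other 5 members had log2 differences of 0.41 ± 0.13 (Glu), 0.37 ± 0.22 (Cys), 0.36 ± 0.16 (Asn), 0.33 ± 0.14 (Pro) and 0.33 ± 0.13 (Ala; all SE), and none passed. Mutant 1, a shallow library, was the highest cerebellum library for Pro, Glu, Ser1, Tyr and Ala, and mutant 5 for Cys, Asn and Gln. Without mutant 5 there were 3 members past the threshold, Glu, Ala and Tyr, and without mutant 3 there were 2, Ser1 and Tyr. The counts over all tRNAs in these fits are not given here. A rise among the members can therefore not be told from a rise in calls over all tRNAs.

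Split by depth, the differences in CPM were larger among the shallow libraries, where mutant 1 stood against 5 wildtype libraries, than among the deep ones, where 4 mutants stood against wildtype 5. For Tyr the log2 difference of means was 0.91 among the shallow and 0.26 among the deep libraries, for Glu 0.93 and 0.23, and for Asn 0.77 and 0.01. Over the 8 it ran from 0.42 (Gln) to 0.97 (Ser1) among the shallow and from −0.04 (Gln) to 0.42 (Cys) among the deep libraries. Each of these rests on a single library on one side and has no test. With depth class as a term in the fit no tRNA at all passed.

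**Figure D3:**
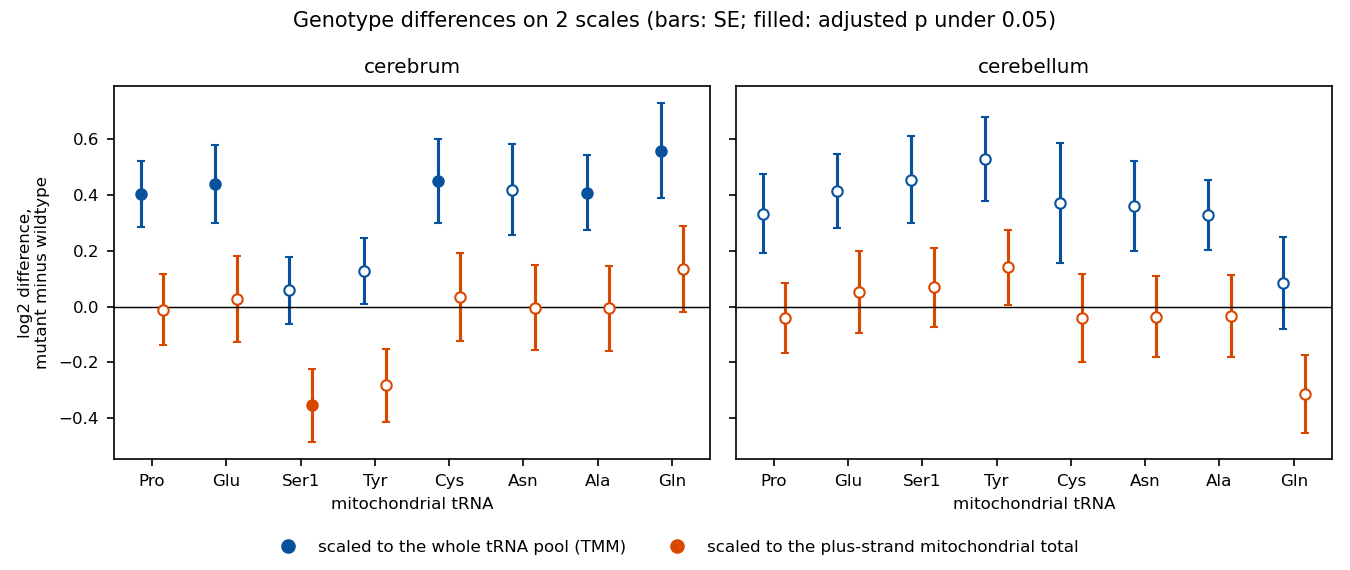
The vertical axis gives the log2 difference, mutant minus wildtype, and the horizontal axis the 8 tRNAs, with cerebrum left and cerebellum right; blue points are scaled to the whole tRNA pool, orange points to the plus-strand mitochondrial total, bars are the SE and filled points passed the threshold. On the plus-strand scale 6 of the 8 lie near 0 in cerebrum, and Ser1 and Tyr lie below it.

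To ask whether the 8 changed apart from the rest of the mitochondrial tRNAs, each was set against the plus-strand mitochondrial counts of its own library. On this scale 1 of 8 passed in cerebrum, Ser1, which fell, while 127 of 208 tRNAs (61.1%), 0 of them higher, passed over all. In cerebellum 0 of 8 passed in edgeR, against 55 of 202 tRNAs (27.2%). At an unadjusted p under 0.05 there was 1 member, against 85 of all 202 tRNAs. DESeq2 called 1 member, and its count over all tRNAs is not given here. Of the 14 plus-strand tRNAs, whose own counts make up this scale, 1 passed in each tissue, as lower. In cerebrum it was phenylalanine (Phe), at −0.43 ± 0.14 (SE; adjusted p = 0.00895). In cerebellum it was the leucine tRNA with anticodon TAG (Leu2), at −0.38 ± 0.13 (SE; adjusted p = 0.0402), both by edgeR with Benjamini-Hochberg adjustment. A fall on this scale was thus not limited to the minus strand. The median over all tRNAs on this scale was −0.44 in cerebrum and −0.37 in cerebellum, and that over the members −0.01 and −0.03.

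Ser1 stood at 3.15, 4.38, 3.37 and 4.33 counts per 100 plus-strand mitochondrial counts in cerebrum mutants. The wildtype libraries had 4.34 at the lowest, 4.82 at the median and 5.43 at the highest. Mutants 1 and 3, both male, were the lowest, 3 of the 4 mutants lay below every wildtype library and mutant 2 lay just within their range. The log2 difference was −0.35 ± 0.13 (SE; adjusted p = 0.0233, edgeR with Benjamini-Hochberg adjustment). It missed the threshold without mutant 1 (−0.27), mutant 3 (−0.30) or wildtype 2 (−0.32), and was −0.38 with sex in the fit.

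Tyr stood at 4.74, 7.11, 5.98 and 6.96 counts per 100 plus-strand counts in cerebrum mutants, and the wildtype libraries had 6.65 at the lowest, 7.66 at the median and 8.33 at the highest. The same mutants, 1 and 3, were low and the other 2 lay in the wildtype range. The log2 difference of −0.28 ± 0.13 (SE; adjusted p = 0.0596, edgeR with Benjamini-Hochberg adjustment) did not pass. Pro, Glu, Cys, Asn, Ala and Gln had log2 differences between −0.01 (Pro) and 0.13 (Gln) in cerebrum, with standard errors of 0.13 to 0.16.

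Gln gave the lowest value of the 8 in cerebellum on this scale. Mutants had 1.46, 1.52, 1.29, 1.54 and 1.8 counts per 100 plus-strand counts, and the wildtype libraries 1.68 at the lowest, 1.85 at the median and 2.17 at the highest. In 4 of the 5 mutants it lay below every wildtype library, mutant 5 being the exception. On the log2 scale the difference was −0.31 ± 0.14 (SE; adjusted p = 0.0974, edgeR with Benjamini-Hochberg adjustment), and it was −0.36 among the shallow and −0.38 among the deep libraries. Asn, its closest partner in covariation, had −0.04 ± 0.14 (SE).

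The second comparison of the design is between the tissues. In wildtype mice 3 of the 8 were higher in cerebellum than in cerebrum, 2 were lower and 3 did not pass, in a comparison where 145 of 204 tRNAs (71.1%) passed. In mutants 5 were higher, 2 were lower and Pro did not pass, where 148 of 204 (72.5%) passed. The members' share of calls is near that background. Relative to the pool Ala and Glu were more than 2-fold higher in cerebellum in both genotypes, and Asn and Gln were lower.

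Ala had 896 at the lowest, 1339 at the median and 1621 at the highest CPM in wildtype cerebrum and 3186 at the lowest, 3338 at the median and 3679 at the highest in wildtype cerebellum. The groups lay far apart. The log2 difference, cerebellum minus cerebrum, was 1.35 ± 0.13 (SE; adjusted p = 1.1e-09) in wildtype and 1.26 ± 0.16 (SE; adjusted p = 7.22e-08) in mutants, by edgeR with Benjamini-Hochberg adjustment over 204 tRNAs.

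Glu had 1023 at the lowest, 1518 at the median and 1791 at the highest CPM in wildtype cerebrum and 3121 at the lowest, 3353 at the median and 3832 at the highest in wildtype cerebellum, without overlap. In mutants the cerebellum libraries had 6378, 3946, 4496, 5036 and 3775 CPM, all above the 4 cerebrum mutants. The fitted log2 difference was 1.20 ± 0.14 (SE; adjusted p = 1.21e-08) in wildtype and 1.17 ± 0.16 (SE; adjusted p = 5.31e-07) in mutants by edgeR with Benjamini-Hochberg adjustment.

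Asn went the other way. Wildtype cerebellum had 1225 at the lowest, 1344 at the median and 1704 at the highest CPM, below every wildtype cerebrum library, and the cerebellum mutants had 2260.2, 1477, 1347, 1809 and 2374, below every cerebrum mutant. The log2 difference was −0.83 ± 0.16 (SE; adjusted p = 3.49e-05) in wildtype and −0.92 ± 0.18 (SE; adjusted p = 7.37e-05) in mutants by edgeR with Benjamini-Hochberg adjustment.

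Gln, too, was lower in every cerebellum library than in every cerebrum library of its genotype. On the log2 scale the difference was −0.54 ± 0.17 (SE; adjusted p = 0.0048) in wildtype and −1.05 ± 0.19 (SE; adjusted p = 2.99e-05) in mutants by edgeR with Benjamini-Hochberg adjustment. Trp, the plus-strand tRNA that shares the last base G with Asn and Gln, was also lower in cerebellum, at −0.91 ± 0.15 (SE) in wildtype and −0.91 ± 0.17 (SE) in mutants, and passed in both. Val, which ends with A, had −0.76 ± 0.14 (SE) in wildtype and passed as well, so a lower level in cerebellum was not limited to the 3 tRNAs that end with G. Asn, Gln and Trp together held 18.9% to 31.9% of mitochondrial counts in cerebrum libraries and 10.6% to 14.6% in cerebellum libraries.

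Cys had 1889 at the lowest, 2161 at the median and 3081 at the highest CPM in wildtype cerebellum, all above wildtype cerebrum, and 4110.1, 2432, 1779, 2659 and 4258 in cerebellum mutants, of which mutant 3 lay below every cerebrum mutant. Relative to the pool it rose in both genotypes, by 0.57 ± 0.18 (SE; adjusted p = 0.00559) in wildtype and 0.47 ± 0.21 (SE; adjusted p = 0.0442) in mutants on the log2 scale by edgeR with Benjamini-Hochberg adjustment, and was at −0.31 and −0.63 with the spike-in held constant. The mutant call was lost without cerebrum mutant 1, 2 or 3 or cerebellum mutant 1 or 5. Ser1 and Tyr passed in mutants, at 0.50 ± 0.15 (SE; adjusted p = 0.00414) and 0.49 ± 0.15 (SE; adjusted p = 0.00376), and not in wildtype, at 0.13 ± 0.13 and 0.11 ± 0.12 (SE), and all these values were negative with the spike-in held constant. The test of the difference between genotypes, given under the interaction, did not pass for either. Pro had 7178 at the lowest, 7672 at the median and 9961 at the highest CPM in wildtype cerebellum and 13259.7, 7872, 9870.5, 10145 and 12130.5 in cerebellum mutants, and the tissues overlapped. It was at 0.07 ± 0.13 in wildtype and −0.01 ± 0.15 in mutants (SE) and passed in neither.

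**Figure D4:**
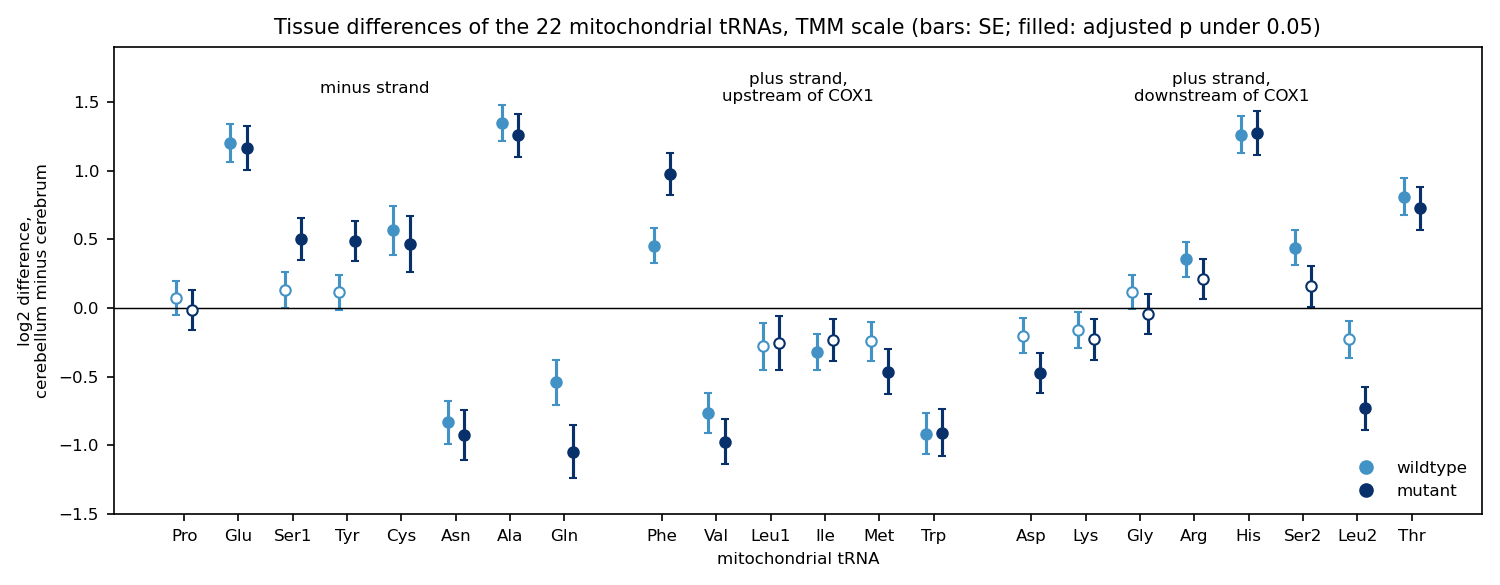
The vertical axis gives the log2 difference, cerebellum minus cerebrum, on the TMM scale for each of the 22 mitochondrial tRNAs on the horizontal axis, grouped by strand and by position relative to COX1 (the gene Co1); light points are wildtype, dark points mutants, bars the SE, and filled points passed the threshold. Members range from −0.83 (Asn) to 1.35 (Ala) in wildtype, and the plus-strand tRNAs from −0.91 (Trp) to 1.26 (His). With the spike-in held constant Pro, Ser1, Tyr and Cys lay below 0 in both genotypes.

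The spread among the members was as wide as among the plus-strand tRNAs, of which 5 were higher and 3 lower in wildtype cerebellum and 3 higher and 5 lower in mutants. Set against the plus-strand total, the same counts of members passed: 3 higher and 2 lower in wildtype (66.7% of 204 tRNAs passed) and 5 higher and 2 lower in mutants (71.1% passed). Ala was at 1.47 ± 0.14 and Asn at −0.72 ± 0.14 (SE) in wildtype on that scale. The median over the members was 0.23 in wildtype and 0.62 in mutants, against −0.07 and −0.06 over the 14 plus-strand tRNAs. It was 0.36 and 0.21 over the 8 plus-strand tRNAs encoded after Co1 and −0.19 and −0.20 over the 6 encoded before it. Over all 204 tRNAs the median was 0.07 in wildtype and 0.18 in mutants.

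Directions between tissues depend on the scale. The spike-in held 0.266% ± 0.0351 (SD, n = 6) of all counts in wildtype cerebrum and 0.634% ± 0.178 (SD, n = 6) in wildtype cerebellum, and with it held constant the median over all tRNAs was −0.99 in wildtype and −1.09 in mutants. On that scale 0 members were higher and 5 were lower in wildtype cerebellum, and 0 higher and 6 lower in mutants. Over all 204 tRNAs 67.6% were lower in wildtype and 69.1% in mutants on that scale, so the members' counts lie near the background. Ala was at 0.44 (adjusted p = 0.0602) and Asn at −1.72 in wildtype by edgeR. How much spike-in was added, and at which step, is not stated in the labels. Among libraries of over 3000000 counts, where wildtype 5 is the only wildtype cerebellum library, Ala and Glu passed in wildtype at 1.37 and 1.31, and Asn (−0.54), Gln (−0.48) and Cys (0.36) did not.

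Whether the genotype difference itself differed between tissues was tested as an interaction. Without a replicate block none of the 8 passed in edgeR or DESeq2, while 10 of 204 tRNAs (4.9%) passed in edgeR. At an unadjusted p under 0.05 there were 0 members and 30 of all 204 tRNAs. The values furthest from 0 were those of Gln, −0.50 ± 0.25 (SE; adjusted p = 0.336), Tyr, 0.38 ± 0.19 (SE; adjusted p = 0.339), and Ser1, 0.37 ± 0.20 (SE; adjusted p = 0.368), by edgeR with Benjamini-Hochberg adjustment. A negative value means that the difference, mutant minus wildtype, was lower in cerebellum than in cerebrum. The other 5 lay between −0.10 (Cys) and −0.04 (Glu). The labels do not say whether same-numbered libraries of the tissues came from the same mouse, and their sexes match in 10 of 10 pairs. With genotype and replicate number together as a block Gln passed, at −0.62 (adjusted p = 0.0222, edgeR with Benjamini-Hochberg adjustment), where 28 of 204 tRNAs (13.7%) passed.

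The members varied together in pairs. After the mean of each of the 4 groups was removed from the log2 levels, the Pearson correlation over the 21 libraries, which share library depth and scaling, was 0.95 between Glu and Ala, 0.92 between Asn and Gln, 0.86 between Ser1 and Tyr and 0.79 between Pro and Cys. Over all 28 pairs the median was 0.37 and the lowest −0.14. On the scale of the plus-strand total the 4 pairs were at 0.95, 0.84, 0.79 and 0.55, and each member's closest partner among the other 7 was the same. Glu and Gln were at −0.62 there and at −0.12 on the TMM scale. Relative to the plus-strand total, a library rich in one thus tended to be poor in the other.

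Of the 4 pairs, 1 joins neighbours in the order of the tRNAs on the strand, Ser1 and Tyr, and 3 do not. Asn and Ala, 2 bases apart, were at −0.14 on the TMM scale and −0.51 on the plus-strand scale, and Tyr and Cys, also 2 bases apart, at 0.54 and 0.16. In the sequences printed above, Asn and Gln both start with T and end with G. Glu, Ala, Ser1 and Tyr all start with G and end with A, so both of these pairs share their end bases, and Glu, Ala and Ser1 are 69 bases long. The same end bases are shared across these pairs, where correlations on the plus-strand scale were lower. They were 0.37 for Glu and Ser1, 0.28 for Ala and Ser1, 0.25 for Glu and Tyr and 0.16 for Ala and Tyr. Pro and Cys differ in both end bases. Both tRNAs of the pair Glu and Ala were higher in cerebellum and both of the pair Asn and Gln lower, and Ser1 and Tyr had the lowest genotype differences of the 8 in cerebrum and the highest in cerebellum on the TMM scale.

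**Figure D5:**
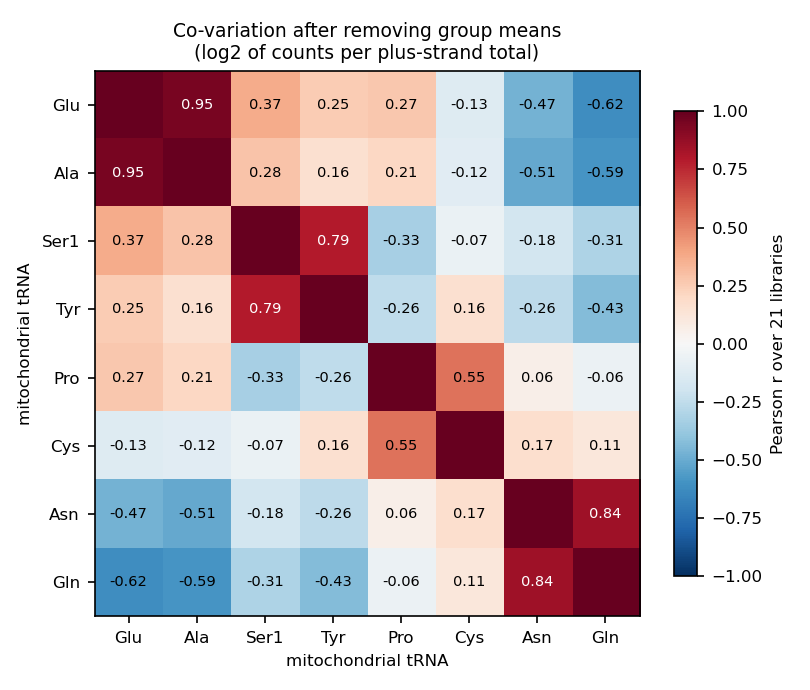
Both axes list the 8 tRNAs, and each cell gives the Pearson correlation over 21 libraries of the log2 counts per plus-strand total after removing the group means, on a colour scale from −1 (blue) to 1 (red). Glu with Ala, Asn with Gln, Ser1 with Tyr and Pro with Cys are the 4 pairs with the highest values.

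In 3 of the 4 pairs both members were closest to the same plus-strand tRNA, and Pro and Cys were not. On the TMM scale Glu and Ala were closest to threonine (Thr) at 0.83 and 0.84, Asn and Gln to Trp at 0.73 and 0.83, Ser1 and Tyr to phenylalanine (Phe) at 0.71 and 0.64, Pro to lysine (Lys) at 0.84 and Cys to the serine tRNA with anticodon GCT (Ser2) at 0.77. Thr was higher in cerebellum, as Glu and Ala were, at 0.81 ± 0.13 (SE) in wildtype. Phe was the plus-strand tRNA that, like Ser1 and Tyr, was near 0 in cerebrum mutants, and it was at 0.52 ± 0.14 (SE) in cerebellum mutants.

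Of all 196 tRNAs outside the 8 that were compared, the 5 whose levels followed the mean of the members most closely, by Pearson correlation over 21 libraries after removing group means, were all mitochondrial: Lys (0.79), Ser2 (0.76), Leu1 (0.74), Val (0.72) and Leu2 (0.69). The closest nuclear tRNA, Gly-GCC-2, came eighth at 0.62.

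Nuclear tRNAs with the same 8 anticodons serve the cytosol and are made by RNA polymerase III. Of 41 measured in cerebrum, 1 rose in mutants and 3 fell, with a median log2 difference of −0.04. Tyr-GTA-1 fell by 0.63 ± 0.15 (SE; adjusted p = 0.0053), Gln-TTG-2-1 by 0.67 ± 0.20 (SE; adjusted p = 0.019) and Tyr-GTA-5-1 by 0.46 ± 0.15 (SE; adjusted p = 0.0318), and Cys-GCA-3 rose by 0.51 ± 0.16 (SE; adjusted p = 0.0266), by edgeR with Benjamini-Hochberg adjustment. Reads of near-identical nuclear isodecoders may have been divided among their rows, so these counts are uncertain. In cerebellum the 39 measured ranged from −0.58 to 0.27 with a median of −0.02.

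The ratio of a mitochondrial tRNA to its nuclear counterparts sets both pools against each other. For Tyr, mutant cerebrum had 51.7 ± 5.87 (SD, n = 4) mitochondrial counts per 100 counts of the 5 nuclear Tyr-GTA isodecoders and wildtype cerebrum 31.8 ± 3.98 (SD, n = 6), and the ranges did not overlap. For Gln the ratio in mutant cerebrum was 136 ± 28.7 (SD, n = 4) and that in wildtype cerebrum 94.9 ± 13.6 (SD, n = 6), and the ranges overlapped. Cys was counted more often from the mitochondrial gene than from all its nuclear genes, at 253 ± 63.6 (SD, n = 6) per 100 in wildtype cerebrum and 583 ± 232 (SD, n = 6) in wildtype cerebellum. The first value is over 15 nuclear Cys-GCA rows and the second over the 13 that the cerebellum table lists, so the denominators differ. Asn was at the other end, at 2.4 ± 0.353 (SD, n = 6) and 2.26 ± 0.425 (SD, n = 6). These ratios are a description, with no test.

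The headers of the authors' deposited tables do not name the direction of the fold changes, which was inferred from their correlation with the fit to the deposited counts: the cerebrum values were turned in sign here and the cerebellum values were not. For Ser1 the authors' deposited table then has a log2 change of −0.35 with a standard error of 0.13 and an adjusted p of 0.0137, and for Tyr the authors' deposited table has −0.29 with 0.13 and 0.0439. The other 6 members lie between 0.00 and 0.17 in the authors' deposited table for cerebrum and none has an adjusted p under 0.05. In the authors' deposited table for cerebellum Gln has −0.28 with a standard error of 0.13 and an adjusted p of 0.0901, and no member has an adjusted p under 0.05. The sources used here do not state the scaling behind these tables. Values of the authors' deposited tables differed from the edgeR fit scaled to the mitochondrial total by a median of 0.01 in cerebrum and 0.04 in cerebellum over all tRNAs.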

How the data were processed

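The submitters' processing notes name the mm10 build and the tools Bowtie2, cutadapt, DESeq2 and featureCounts, without versions; the sources used here do not state settings or how reads that match several tRNAs were assigned. For each tissue the authors deposited a table of raw counts, and tables with log2 fold changes, their p-values, a test statistic (a score) and a mean signal per tRNA, per the file headers; of these tables only log2 changes, standard errors and adjusted p-values were used. The spike-in row entered neither library sizes nor tests.

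Tests used edgeR 4.0.16 (limma 3.58.1, R 4.3.3): filterByExpr with a minimum count of 10, TMM factors from the tRNAs kept, robust quasi-likelihood fits and Benjamini-Hochberg adjustment over all tRNAs at 0.05. The standard error is the log2 difference over the square root of F. Genotypes were compared within each tissue; tissues and the interaction were fitted over the 21 libraries with the 204 tRNAs that both tables list. A second scale used the summed plus-strand mitochondrial counts as library size. Printed CPM are scaled over all 21 libraries, so their ratios can differ slightly from the fitted values. The steps were tested on simulated data.

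The 8 members and the lists (plus-strand tRNAs before and after Co1, nuclear tRNAs with the same anticodon) were chosen with earlier results of these data known. All members were named, with up to 4 same-anticodon nuclear tRNAs that passed and the 5 tRNAs most alike; other tRNAs were named after their values were seen. Alternatives were RLE and nuclear TMM factors, library totals, mitochondrial total and spike-in scaling, the median of ratios and partial totals for the plus-strand scale, DESeq2 1.42.0, no filter, sex, depth class and replicate number in the fit, a joint fit, deep libraries only, cerebellum mutants 1 and 5 left out, and leaving out each library. Depth class and deep libraries only, for tissues and the interaction, were chosen after seeing the data.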

Additional observations from a re-analysis of the deposited data

Results flagged for a closer look

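In 68 sets of 4 to 6 libraries (each member's CPM, its counts per 100 plus-strand mitochondrial counts and the summed share, per group), the gap between the highest or lowest library and its nearest neighbour was compared with the group's range. It passed Dixon's 95% limit in 5 sets, where chance alone gives about 1 in 20. Asn had 5017 CPM in cerebrum mutant 1, with the next mutant at 3119. Pro had 10.9 counts per 100 plus-strand counts in cerebellum wildtype 3, with the next library at 9.51. Cys had 1.003 in cerebrum wildtype 2, below 1.65 in the next. Ala had 2.55 in cerebellum mutant 5, below 4.05 in the next. The minus-strand share of mitochondrial counts was 28.8% in cerebellum wildtype 5, the deep wildtype library, with the next at 27.6%.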

How the results depend on the processing

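In cerebrum, 5 members passed between genotypes with TMM and 1 to 5 when a library was left out; library totals and mitochondrial total scaling gave 1 each (Ser1 then lower, at −0.33) and spike-in scaling 0. In cerebellum 0 passed; leaving out a library gave 0 to 3, DESeq2 2, the joint fit 3, nuclear TMM 1 and leaving out mutants 1 and 5 gave 1. Against the plus-strand total, cerebrum gave 1 (0 to 2 when a library was left out), 2 with the median of ratios, the downstream total or sex, and 0 with the upstream total; cerebellum gave 0, and 1 with the upstream total or DESeq2. Between tissues in wildtype 5 passed, 2 among deep libraries only; against the plus-strand total 5, 3 with depth class and 2 among deep libraries. Spike-in scaling turned Pro (−0.81), Ser1 (−0.80), Tyr (−0.80) and Cys (−0.31) in wildtype, and Ser1 (−0.63), Tyr (−0.63) and Cys (−0.63) in mutants. The causes were not tested. All other counts stayed within 1.5 times. The counts in this paragraph are of members only, without the counts over all tRNAs in the same fits.

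The labels do not say whether same-numbered libraries of the tissues share a mouse, and the check did not settle it. The main tests treat them as unpaired. Between tissues the sexes match in 10 of 10 same-numbered pairs. Same-numbered deviations correlated at −0.31 to 0.55 between genotypes in cerebrum, 0.02 to 0.24 in cerebellum, and −0.19 to 0.45 between tissues, where 4 of 6 wildtype and 0 of 4 mutant libraries matched their own number best. Between genotypes, the replicate block joined mutant and wildtype libraries of the same number. These cannot come from the same mouse, and some differ in sex. That block therefore does not test for a shared mouse. With it 6 and 0 members passed between genotypes in cerebrum and cerebellum. Calls rose over all 208 tRNAs in cerebrum too, with 28 higher and 37 lower, against 17 and 24 without the block. In cerebellum 1 of 202 tRNAs was higher and 4 were lower with the block. In the fits between tissues and of the interaction, genotype and number together made the block. There 5 and 6 members passed between tissues in wildtype and mutants, and 1 (Gln, lower) in the interaction. Over all 204 tRNAs 74 were higher and 81 lower in wildtype cerebellum, and 76 and 80 in mutant cerebellum. In that interaction 28 tRNAs in all passed, against 10 without the block. Against the plus-strand total the counts with a block were 2 and 0 between genotypes and 6 and 7 between tissues. Over all tRNAs on that scale 1 was higher and 133 lower of 208 in cerebrum, and 0 and 12 of 202 in cerebellum. Between tissues 81 of 204 tRNAs were higher and 67 lower in wildtype, and 90 and 56 in mutants. Counting error is small at these depths, and the number of libraries limits the precision.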
